A study of Mus musculus with 43 samples.

Results

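The comparison set the back skin of NZM mice after chronic UVB against the back skin of NZM mice after acute UVB. It covered 10 of the 43 libraries of the study, chosen by the strain and regimen in their labels, and the 19170 of 23256 genes that had a normalised read count of at least 10 in at least 4 of the 43 libraries. The title of the series gives the NZM line as NZM2328, which is prone to lupus. UVB is the band of ultraviolet light that burns skin. The acute regimen was a single exposure of 300 mJ/cm2 and the chronic regimen was 100 mJ/cm2 on each of 5 days, so the summed dose was 300 mJ/cm2 in one and 500 mJ/cm2 in the other. Skin was taken 24 hours after the last exposure in both, from females aged 10 to 13 weeks. The regimens therefore differ in dose per exposure, in total dose and in the time since the first exposure, and these cannot be told apart. There were 5 libraries for each regimen, and 5 libraries of unexposed NZM skin served as the base line. The WT and iNZM groups were used only to compare the size of the same difference (5 libraries per regimen in each). The labels do not define WT or iNZM, and they do not say that each library came from a separate animal, so p-values measure the spread between libraries, which may be technical in part.

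Keratinocytes hit by UVB release cytokines and chemokines that call in neutrophils and monocytes, and they shed ligands of the EGF receptor that act back on the epidermis. At the same time they leave or delay the normal programme in which cells move outward, switch to keratins 1 and 10, and build the cornified envelope from loricrin, involucrin, filaggrin and the late cornified envelope (LCE) proteins. Injured epidermis makes another set of envelope proteins, among them LCE3 and several small proline-rich (SPRR) proteins, together with keratins 6, 16 and 17. Most of the envelope genes lie side by side on mouse chromosome 3, in the epidermal differentiation complex.

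In brief, the chronic regimen left NZM skin with lower transcripts than the single dose did for all 5 tested genes of the neutrophil chemokine list, for the cytokines Il24, Il19 and Il6, and for 4 of 10 genes of EGF receptors and their ligands. Of the injury-type envelope genes, 3 of 6 Lce3 genes and 6 of 15 Sprr genes were lower, and 2 Sprr genes were higher. It left higher transcripts for 13 of 14 Lce1 genes, for filaggrin (Flg) and other genes of outer epidermal differentiation, and for Akr1d1, which was at or near 0 reads in the other NZM groups. Of the 19170 genes tested, 1447 passed limma's test at an adjusted p below 0.05, which is 7.55%. Of these, 726 were higher after chronic UVB (3.79% of the genes tested, median 1.99-fold) and 721 were lower (3.76%, median 1.59-fold). In 1293 genes (6.74%) the 5 chronic and the 5 acute libraries did not overlap, and 810 of these passed the test as well (4.23%). A change of at least 2-fold was found among the called genes for 361 that were higher (1.88%) and 218 that were lower (1.14%). The count of 1447 fell to 836 without acute library 1, 895 without acute library 3 and 943 without chronic library 17, and was 882 when only the 10 compared libraries were fitted. It rose to 2031 without acute library 5, and list counts given below without that library are to be read beside this rise. Sample numbers run in a set under 46 and a set from 46 up in both groups. The labels do not say what the numbers stand for. Within the lower set 874 genes passed, within the higher set 86 did, and with a covariate for the set 1601 did. Within the higher set no gene of the neutrophil chemokine, Lce1 or Lce3 lists passed, with list medians of -3.22, 2.25 and -2.41. Within the lower set 4 of 5, 14 of 14 and 1 of 6 genes of these lists passed. In bulk skin, fewer cells of a type and less RNA per cell cannot be told apart.

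Promoter windows of 6 genes are printed, all of genes that differed between the regimens: 3 chemokine and cytokine genes and 2 Sprr2 genes that were lower after chronic UVB, and Flg, which was higher. Each window runs from 250 bases before to 50 bases after the gene start and comes from RefSeq on build GRCm38.p6. Capitals mark matches on either strand to a letter pattern of the NF-kB type (GGG, any 2 bases, then TTTCC) or to TGANTCA, the AP-1 type. In Il6 the match that lies nearer to the gene start is of the NF-kB type and the other is of the AP-1 type. The windows are Cxcl1 at chr5:90890995-90891294, Cxcl3 at chr5:90785851-90786150, Il6 at chr5:30012864-30013163, Sprr2f at chr3:92364937-92365236, Sprr2i at chr3:92407741-92408040 and Flg at chr3:93273296-93273595, all on the plus strand.
Cxcl1: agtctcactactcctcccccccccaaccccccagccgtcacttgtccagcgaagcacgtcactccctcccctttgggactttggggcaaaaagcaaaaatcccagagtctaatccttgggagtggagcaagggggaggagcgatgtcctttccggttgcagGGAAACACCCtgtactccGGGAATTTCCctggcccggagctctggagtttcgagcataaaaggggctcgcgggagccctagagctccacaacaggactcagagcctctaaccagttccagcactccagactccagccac
Cxcl3: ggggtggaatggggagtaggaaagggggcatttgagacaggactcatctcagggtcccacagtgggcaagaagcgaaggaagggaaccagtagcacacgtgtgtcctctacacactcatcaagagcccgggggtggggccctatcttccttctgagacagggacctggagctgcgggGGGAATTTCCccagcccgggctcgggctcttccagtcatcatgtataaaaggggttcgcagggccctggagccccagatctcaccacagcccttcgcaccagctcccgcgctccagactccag
Il6: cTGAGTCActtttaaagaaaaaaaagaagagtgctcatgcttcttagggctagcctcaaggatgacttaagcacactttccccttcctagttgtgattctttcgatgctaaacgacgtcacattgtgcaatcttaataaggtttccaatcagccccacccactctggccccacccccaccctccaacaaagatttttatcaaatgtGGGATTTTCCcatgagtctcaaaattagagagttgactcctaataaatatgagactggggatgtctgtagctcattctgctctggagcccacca
Sprr2f: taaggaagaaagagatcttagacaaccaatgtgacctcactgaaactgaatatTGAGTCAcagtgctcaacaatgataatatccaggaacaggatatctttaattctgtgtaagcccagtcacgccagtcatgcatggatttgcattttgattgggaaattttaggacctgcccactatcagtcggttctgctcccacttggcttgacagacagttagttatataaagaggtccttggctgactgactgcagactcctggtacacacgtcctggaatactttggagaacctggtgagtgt
Sprr2i: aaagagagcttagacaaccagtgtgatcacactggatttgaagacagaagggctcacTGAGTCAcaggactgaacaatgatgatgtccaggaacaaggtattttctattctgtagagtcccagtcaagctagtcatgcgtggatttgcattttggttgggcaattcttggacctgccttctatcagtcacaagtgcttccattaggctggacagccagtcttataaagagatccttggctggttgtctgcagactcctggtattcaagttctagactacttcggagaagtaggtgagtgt
Flg: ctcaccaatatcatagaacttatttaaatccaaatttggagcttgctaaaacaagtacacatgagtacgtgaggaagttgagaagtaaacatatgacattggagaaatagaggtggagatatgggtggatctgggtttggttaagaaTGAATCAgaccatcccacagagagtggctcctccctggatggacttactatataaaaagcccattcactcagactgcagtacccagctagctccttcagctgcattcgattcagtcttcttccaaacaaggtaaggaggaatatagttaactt

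The Cxcl1 window holds 2 NF-kB type matches, starting 89 and 71 bases before the gene start, and the Cxcl3 window holds 1, starting 73 bases before it. In Il6 the NF-kB type match starts 44 bases before the start. Sprr2f and Sprr2i carry their AP-1 type match at nearly the same distance, 197 and 193 bases before the start. Of all 32851 RefSeq promoter windows, 1.6% held the NF-kB pattern and 7.8% the AP-1 pattern. RefSeq windows matched 11692 of the 19170 tested genes. Counted per gene, with a match in any of its windows, 2.1% of these held the NF-kB pattern and 7.2% the AP-1 pattern. Per window the shares for tested genes were 1.7% and 6.0%, and the shares that follow are per gene. Among the 530 genes with a window that were called lower after chronic UVB the shares were 2.8% and 7.9%, and among the 461 called higher they were 2.4% and 9.1%. Over the whole sets of called genes the shares were thus close to those of all tested genes. The 6 windows printed were picked, with the values known, among those that hold a match. The windows of Epgn, Il19, Lce3b, Lce3d, Slpi, Serpina12, Akr1d1 and Lce1h held neither pattern. Such a match describes letters in a window and is not evidence of binding.

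The markers of back skin were present in all 10 libraries, with Krt5 from 73303 to 131816, Col1a1 from 6410 to 27680 and the muscle gene Acta1 from 25362 to 281298. Depth ran from 23.43 to 37.76 M reads. Hair shaft genes split the libraries across the regimens. The summed level of 30 hair shaft and root sheath genes was 331 to 1571 in acute libraries 1, 3, 46 and 47 and 626514 in acute library 5. In the chronic group it was 427 in library 54, 13905 in library 18 and 439148 to 740006 in libraries 17, 55 and 56. A score, the mean centred log2 value of the list, was above 5 in acute library 5 and chronic libraries 17, 55 and 56, and in 9 of all 43 libraries. Melanocyte genes moved with it, at 64117 in acute library 5, 43567 to 52414 in chronic libraries 17, 55 and 56 and at most 2955 in the other 6. The muscle list was lower in the same chronic libraries (114675 to 271295) than in the other 2 (484929 and 863746). Although the hair shaft median was 5.60, no hair shaft gene passed as higher and Krtap13 passed as lower. Krtap13 did not pass without acute library 3 or 47 or chronic library 54 (limma adjusted p = 0.0505 to 0.0520), and no hair shaft gene was called lower with edgeR or DESeq2. Without acute library 5, 19 hair shaft genes were called higher, and without chronic library 54, 7 were. No unexposed NZM library had a score above 5 (highest -0.96). The unexposed NZM libraries, numbered 31 to 35, also all lay in the set of sample numbers under 46. Hair state and number set are thus partly confounded with UVB in comparisons with unexposed skin.

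Acute library 5 and chronic library 55 lay towards the other regimen in many of the named genes, while the hair-rich chronic libraries 17 and 56 did not. Acute library 5 was the lowest acute library in 14 of the 15 genes named as lower and the highest acute one in 8 of the 15 named as higher. Chronic library 55 was the lowest chronic library in 14 of the 15 higher genes and the highest in 12 of the 15 lower ones. Chronic library 17 held these places in none of the genes, and chronic library 56 in 1 of the 15 lower ones. Leaving out all libraries with a score above 5 left 4 acute and 2 chronic libraries in NZM. The count of called genes was then 2079, and 1088 of the 1447 genes were called again. All 5 neutrophil chemokines were again lower, 14 of 14 Lce1 genes were higher, 17 of 26 differentiation genes, 9 of 22 barrier lipid genes and 9 of 11 Skint genes were higher, and none of these genes was called in the opposite direction. The part of hair growth in the differences was not tested beyond these fits.

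**Figure D1:**
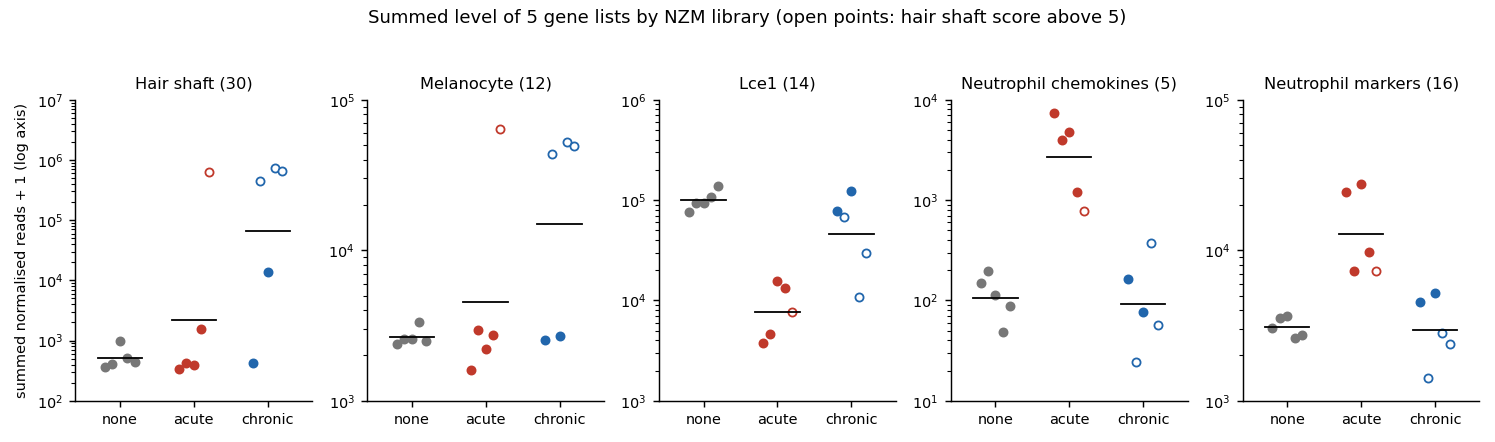
Summed normalised reads plus 1, on log axes, of 5 gene lists in each NZM library by regimen (none, acute, chronic); open points have a hair shaft score above 5 and lines are means on the log scale. Hair shaft and melanocyte sums are high in acute library 5 and chronic libraries 17, 55 and 56, while the sums of neutrophil chemokines (785 to 7315 and 23.3 to 372) do not overlap between acute and chronic UVB.

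The neutrophil chemokines had the most negative median of the 50 gene lists. All 5 tested genes of the list (of 7 listed) were lower after chronic UVB, with a median log2 difference of -4.82, against 0.02 over all genes. Cxcl1, a ligand of the neutrophil receptor CXCR2 (ENSMUSG00000029380.11, chr5:90891241-90893115 in GRCm38), had normalised read counts of 3088, 1889, 592, 1855 and 967 in acute libraries 1, 3, 5, 46 and 47. In chronic libraries 17, 18, 54, 55 and 56 its counts were 17.9, 46.8, 79.5, 67.1 and 40.0. The lowest acute library thus lay above every chronic library, and the chronic values lay among or below those of unexposed skin, which ran from 45.2 to 164. The log2 difference was -4.97 ± 0.71 (SE, limma adjusted p = 3.48e-05). Cxcl5, which has the same receptor, was at 3538, 2582, 157, 1845 and 149 in the acute libraries in the same order. It was at 0.895, 18.9, 64.3, 288 and 9.14 in the chronic libraries. Chronic library 55 reached above the 2 lowest acute libraries, so the groups overlapped for this gene (log2 difference -5.14 ± 1.12, limma adjusted p = 0.00328). Csf3, which encodes the growth factor G-CSF of neutrophil production, ran from 14.1 to 171 after acute UVB and from 0 to 3.08 after chronic UVB (-4.82 ± 0.88, limma adjusted p = 0.000582). Cxcl3 and Cxcl2 had log2 differences of -3.82 ± 0.89 and -3.57 ± 0.92. When only the 10 compared libraries were fitted, 3 of these 5 genes passed, and the call for Cxcl5 was lost (limma adjusted p = 0.0603). Without acute library 1 or chronic library 17, 4 of the 5 passed.

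**Figure D2:**
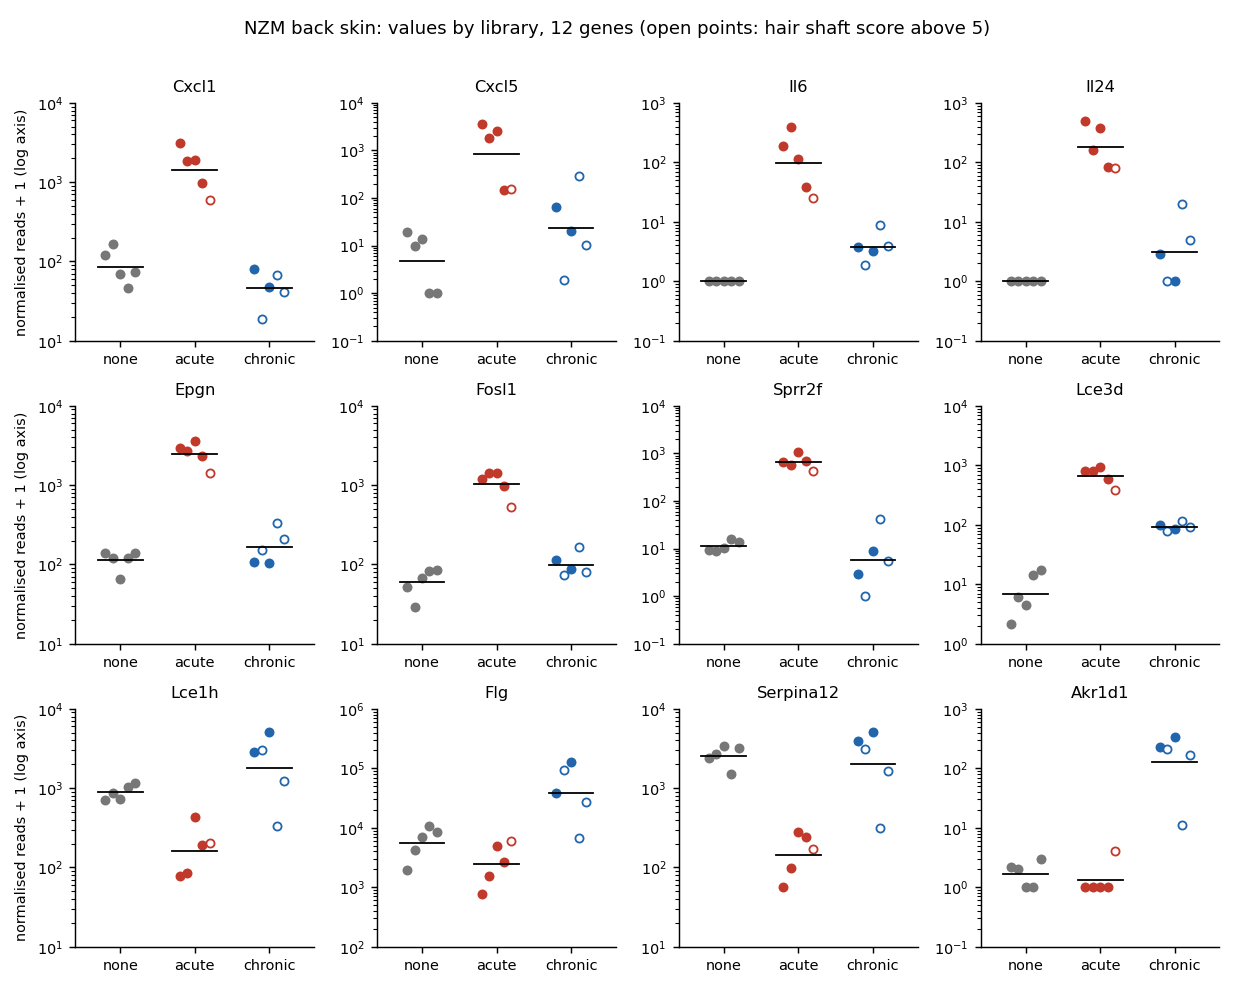
Normalised read counts plus 1 on log axes for 12 genes in NZM skin that was unexposed or had acute or chronic UVB; each point is 1 library, lines are means on the log scale, and open points are libraries with a hair shaft score above 5. Cxcl1, Il6, Il24, Epgn, Fosl1, Sprr2f and Lce3d are separated between acute and chronic UVB with acute high, Flg, Serpina12 and Akr1d1 with chronic high, and Cxcl5 and Lce1h overlap.

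Among the cytokines, 4 of 13 tested genes of the interleukin-6, interleukin-20 and related list were lower and none passed as higher. Il24, an interleukin-20 family cytokine that acts on keratinocytes, had counts of 496, 370, 79.6, 160 and 83.0 in acute libraries 1, 3, 5, 46 and 47. It had 0, 0, 1.89, 19.3 and 4.0 in chronic libraries 17, 18, 54, 55 and 56, and no reads in any unexposed NZM library. The chronic libraries were thus near the unexposed ones, with library 55 the highest of them (log2 difference -5.87 ± 0.89, limma adjusted p = 5.34e-05). Il6 was at 191, 115, 24.2, 390 and 37.4 after acute UVB and at 0.895, 2.23, 2.84, 7.71 and 2.86 after chronic UVB. It too was without reads in unexposed skin, so its acute mean was at least 230-fold higher and its chronic mean at least 5.03-fold higher than a floor of 3 reads over the unexposed group, counting error only. The log2 difference of Il6 between the regimens was -4.67 ± 0.80 (limma adjusted p = 0.000269). Il19, which lies beside Il24 on chromosome 1, fell from 141 ± 90.1 to 4.68 ± 6.44 (mean ± SD, n = 5 each; log2 difference -5.25 ± 0.95). Il23a, a subunit of interleukin-23, was the fourth gene called, at -2.47 ± 0.64. Its call was lost without acute library 1 or chronic library 18 (limma adjusted p = 0.0610 and 0.0709) and when only the 10 compared libraries were fitted (limma adjusted p = 0.0881). Outside the lists, Fgf23, a hormone of phosphate balance, ran from 9.37 to 198 after acute UVB and from 0 to 7.80 after chronic UVB (-4.79 ± 1.05, limma adjusted p = 0.00358). Sh2d5, an SH2 domain gene, was also lower and had 387 ± 224 and 34.4 ± 33.0 reads.

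The interleukin-1 family did not move one way. Il1b, the classical inflammatory member, was lower after chronic UVB (-2.96 ± 0.86, limma adjusted p = 0.027), with overlap between the groups. Il18, which keratinocytes hold ready as a precursor, was higher, at 292, 540, 223, 193 and 374 in the acute and 1801, 3052, 2188, 395 and 1104 in the chronic libraries (2.20 ± 0.45, limma adjusted p = 0.00172). Library 55 was the single chronic library within the acute range. Il1f5, the antagonist of the interleukin-36 receptor, was also higher (1.97 ± 0.49, limma adjusted p = 0.0102), while its agonist relatives Il1f8 and Il1f6 differed by 1.41 ± 0.62 and 1.24 ± 0.79 and did not pass. The call for Il1b was lost without acute library 1, 3 or 46 and without chronic library 17 or 56 (limma adjusted p = 0.0650 to 0.109), and when only the 10 compared libraries were fitted. In that fit Il1f5 did not pass either (limma adjusted p = 0.0596).

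Some genes for chemokines and adhesion molecules that serve monocytes and other leukocytes were also lower. In the CC chemokine list 2 of 17 genes were lower, where 3.76% of all genes tested were. They were Ccl7, at 1161 ± 714 after acute and 166 ± 141 after chronic UVB (SD, n = 5 each), and Ccl19, at a low level. The count was 5 without acute library 5, 4 without chronic library 54 and 1 without acute library 1 or 46 or chronic library 17, where Ccl7 did not pass (limma adjusted p = 0.0536 to 0.0667). Ccl2, the main monocyte attractant, ran from 89.8 to 572 after acute UVB and from 43.0 to 291 after chronic UVB and missed the threshold (-1.74 ± 0.66, limma adjusted p = 0.0999). Of 14 endothelial genes, Icam1 and Sele, which let leukocytes attach to the vessel wall, were lower, with log2 differences of -1.20 ± 0.25 and -2.25 ± 0.73. Of the 14 genes, 1 passed when any library but acute 5 or chronic 54 was left out, and Sele then did not pass (limma adjusted p = 0.0652 to 0.148). At 1 gene, the CC chemokine list and the endothelial list were near the share of all genes. Among 16 neutrophil markers 3 were lower (Clec4e, Hdc and S100a9), with a list median of -1.86. Their summed level ran from 7257 to 27545 in the acute and from 1418 to 5234 in the chronic libraries, without overlap, against 2624 to 3643 in unexposed skin. No marker passed without acute library 1, 1 passed without acute library 3 or chronic library 17, 18 or 56, 5 passed without acute library 5, and 6 of 16 were lower with edgeR and with DESeq2.

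A neighbouring group, alarmins and acute-phase proteins, had 6 of 24 genes lower and 1 higher. Slpi, a protease inhibitor of inflamed epithelium, had 591 ± 423 reads after acute and 47.0 ± 21.3 after chronic UVB (-3.44 ± 0.78, limma adjusted p = 0.00467). Lcn2, an iron-binding defence protein, ran from 1125 to 4956 after acute and from 234 to 789 after chronic UVB. Saa1, Saa2 and Saa3 (serum amyloid A) and S100a9 made up the rest, and S100a8, the partner of S100a9, missed the threshold (-2.33 ± 0.77, limma adjusted p = 0.0557). The call for S100a9 was lost without acute library 1, 3 or 47 or chronic library 17, 54, 55 or 56 (limma adjusted p = 0.0587 to 0.139). It was also lost without the hair-rich libraries (limma adjusted p = 0.0951). The gene called higher was Defb1, a beta-defensin (0.91 ± 0.27). Of the 24 genes, 2 passed as lower without acute library 1, 3 without acute library 3 or chronic library 17, and 10 without acute library 5. The call for Saa3 was lost without acute library 1 or 3 or chronic library 17 (limma adjusted p = 0.0607 to 0.0721), and that for Saa1 without acute library 1 or chronic library 54 (limma adjusted p = 0.0599 and 0.0643). Neither passed when only the 10 compared libraries were fitted. No gene of the list passed as higher when any 1 library other than acute 3, acute 47 or chronic 55 was left out.

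Several EGF receptor ligands were lower after chronic UVB. Epgn, which encodes the ligand epigen, had counts of 2943, 3573, 1411, 2724 and 2314 after acute UVB. After chronic UVB the counts were 150, 102, 107, 337 and 210, against 64.7 to 140 in unexposed skin. The regimens did not overlap, and 3 of the 5 chronic libraries were above the unexposed range. The difference was -3.91 ± 0.54 (limma adjusted p = 3.18e-05). Hbegf (-2.47 ± 0.42), Areg (-2.04 ± 0.46) and Tgfa (-1.19 ± 0.33) were also lower and did not overlap, so 4 of the 10 tested genes of the list were lower. Tgfa did not pass without acute library 1 or 3 (limma adjusted p = 0.0548 and 0.0759), and Areg did not when only the 10 compared libraries were fitted (limma adjusted p = 0.0521). The receptor gene Egfr did not pass (-0.13 ± 0.17), and Erbb3, a related receptor, was called higher (0.53 ± 0.15). Erbb3 did not pass without acute library 1, 46 or 47 or chronic library 18 or 54, or when only the 10 compared libraries were fitted. Areg was the one ligand of the 4 that also passed against unexposed skin after chronic UVB (1.90, limma adjusted p = 0.00428).

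Fosl1, the AP-1 subunit known as Fra-1, was at 1197, 1430, 536, 1405 and 965 after acute and at 72.5, 85.8, 114, 163 and 78.3 after chronic UVB (-3.40 ± 0.50, limma adjusted p = 5.06e-05). Of 17 AP-1 and immediate-early genes, Myc, Ier3 and Junb were the other 3 called lower, with log2 differences of -0.95, -1.27 and -0.87. The call for Junb was lost without acute library 1, 3 or 46 or chronic library 18 or 54 (limma adjusted p = 0.0522 to 0.0626). Without chronic library 56, 7 of the 17 were lower. Among 14 NF-kB genes, Bcl3, a nuclear cofactor of NF-kB, and the subunit Rela were lower, at -2.62 ± 0.46 and -0.73 ± 0.14. Without acute library 5 or chronic library 54, 5 of the 14 were lower, where 2031 and 1144 of all genes were called in either direction. Ptgs2, the inducible prostaglandin synthase COX-2, was lower (-2.25 ± 0.52, limma adjusted p = 0.00565), and Hpgd, the enzyme that breaks prostaglandins down, was higher (1.95 ± 0.27, limma adjusted p = 3.48e-05). Hpgd ran from 250 to 390 after acute and from 700 to 2103 after chronic UVB, with no overlap.

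Some genes of matrix remodelling, the p53 response and basal anchoring were also lower. Mmp10, a stromelysin of wounded keratinocytes, was at 12.5 to 42.5 after acute UVB and had reads in 1 of the 5 chronic libraries (3.79), and Mmp1b, Adamts1, Timp1 and Adamts9 completed the 5 of 21 protease and inhibitor genes called lower. This count was 2 without acute library 1 or chronic library 18, and 3 without acute library 3 or 46 or chronic library 17 or 56. Of 30 p53 targets 7 were lower and none was higher, with a list median of -0.25. Tnfrsf10b, a death receptor, was at 699 ± 262 after acute and 232 ± 43.1 after chronic UVB (-1.52 ± 0.26, limma adjusted p = 0.000291). Pmaip1, the pro-death gene Noxa, had a log2 difference of -1.14 ± 0.25, and Mdm2, the negative regulator of p53, one of -0.55 ± 0.13. Of the 30 targets, 4 were lower without acute library 46 and 4 when only the 10 compared libraries were fitted, where Mdm2 did not pass. Cdkn1a, the cell cycle inhibitor p21, did not pass (-0.40 ± 0.22). Among 14 genes of basal keratinocytes 5 were lower, among them Itgb4, Itga6, Itga3 and Plec, with log2 differences from -1.20 to -0.89. Itga6 did not pass when only the 10 compared libraries were fitted (limma adjusted p = 0.0808). Itgb4, Itga6 and Plec encode parts of the hemidesmosome, which holds basal cells to the basement membrane, and Itga3 encodes a further adhesion receptor of these cells. The basal keratins Krt5 and Krt14 differed by 0.33 ± 0.24 and 0.29 ± 0.33 and did not pass.

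The envelope genes split between their subfamilies. Sprr2f (ENSMUSG00000050635.1, chr3:92365187-92366442) had counts of 655, 1067, 419, 571 and 686 after acute UVB. After chronic UVB it was at 0, 7.80, 1.89, 41.6 and 4.57, a range that reached below the unexposed libraries (8.03 to 14.7). Its log2 difference, -6.83 ± 0.80, was the largest negative one by the naming rule (limma adjusted p = 2.55e-06). Sprr2i, Sprr2k, Sprr2g, Sprr2e and Sprr3 were lower as well, Sprr2e not without chronic library 17 (limma adjusted p = 0.0521). Sprr3 had no reads in any chronic library, so its acute mean of 37.0 was at least 75.4-fold higher than 3 reads over the group. By contrast Sprr2a1 and Sprr2a2 were higher by 3.75 ± 0.82 and 3.24 ± 0.78, and Sprr1b, at 3157 to 11020 after acute and 3005 to 4816 after chronic UVB, did not pass (-0.63 ± 0.88). The list thus had 6 genes lower and 2 higher of 15. Sprr2 genes are near-identical copies, and how the authors' counting shared reads between them is not given in the sources used here, so values of single members are uncertain.

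In the group 3 late cornified envelope genes, 3 of 6 were lower. Lce3d stood at 789, 924, 390, 801 and 577 after acute and at 77.9, 83.5, 100, 116 and 89.7 after chronic UVB. Every chronic library also lay above the unexposed range of 1.17 to 16.5, so chronic skin was between the other 2 groups (-2.84 ± 0.63 against acute, limma adjusted p = 0.00409, and 3.78 against none, limma adjusted p = 9.16e-05). Lce3b (-4.68 ± 1.00) and Lce3a (-3.32 ± 0.80) were the other 2. Of the wound keratins, Krt6a was lower (-1.78 ± 0.42, limma adjusted p = 0.00664), while Krt16, Krt6b and Krt17 were not called.

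The group 1 late cornified envelope genes went the other way, with 13 of 14 higher, none lower and a median of 2.78. Lce1h (ENSMUSG00000049593.8, chr3:92763215-92765065) had counts of 77.5, 428, 205, 84.2 and 191 after acute UVB and 3014, 5039, 2821, 334 and 1239 after chronic UVB. Unexposed skin was at 718 to 1166, above every acute library and below 4 of the chronic ones, and chronic library 55 was within the acute range. The log2 difference was 3.45 ± 0.66 (limma adjusted p = 0.000928). Lce1m, the remaining member, fell after both regimens from 48215 ± 10879 in unexposed skin (SD, n = 5), and its chronic and acute means of 7416 ± 6188 and 1811 ± 1597 did not differ beyond the threshold (2.08 ± 0.72, limma adjusted p = 0.0696). Against unexposed skin, 13 of the 14 genes were lower after acute UVB, where 10.7% of all genes were lower. After chronic UVB 1 was higher (Lce1g) and 1 lower (Lce1m), where 9.2% and 9.78% of all genes were called. In each of the 14 Lce1 genes chronic library 55 lay within or below the acute range, so that the groups overlapped.

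Of 26 further genes of differentiation and cornification, 12 were higher and none lower (median 1.57). Flg, which encodes the filaggrin precursor (ENSMUSG00000102439.4, chr3:93273523-93293686), had counts of 757, 4952, 5949, 1521 and 2696 after acute UVB. Its chronic counts were 94793, 125715, 38355, 6819 and 27009. All chronic libraries were above all acute ones, and 4 of 5 were above the highest unexposed library (10795). The difference was 3.96 ± 0.75 (limma adjusted p = 0.000838), and Flg also passed against unexposed skin after chronic UVB (2.78, limma adjusted p = 0.00971). Casp14, the protease that processes filaggrin (2.44 ± 0.46), Ivl, involucrin (1.83 ± 0.36), Hrnr, hornerin (2.50 ± 0.56), and Asprv1, a further filaggrin-processing protease (2.17 ± 0.44), were higher too. Krt1 and Krt10, the keratin pair of the upper epidermis, were higher by 3.34 ± 0.81 and 2.33 ± 0.72. Lor, loricrin, did not pass (1.77 ± 0.70, limma adjusted p = 0.118). The call for Krt10 was lost when acute library 1, 5 or 46 or chronic library 17, 18, 54 or 56 was left out (limma adjusted p = 0.0555 to 0.115), and when only the 10 compared libraries were fitted. Of the 26 genes, 6 passed in that fit and 7 without acute library 1.

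**Figure D3:**
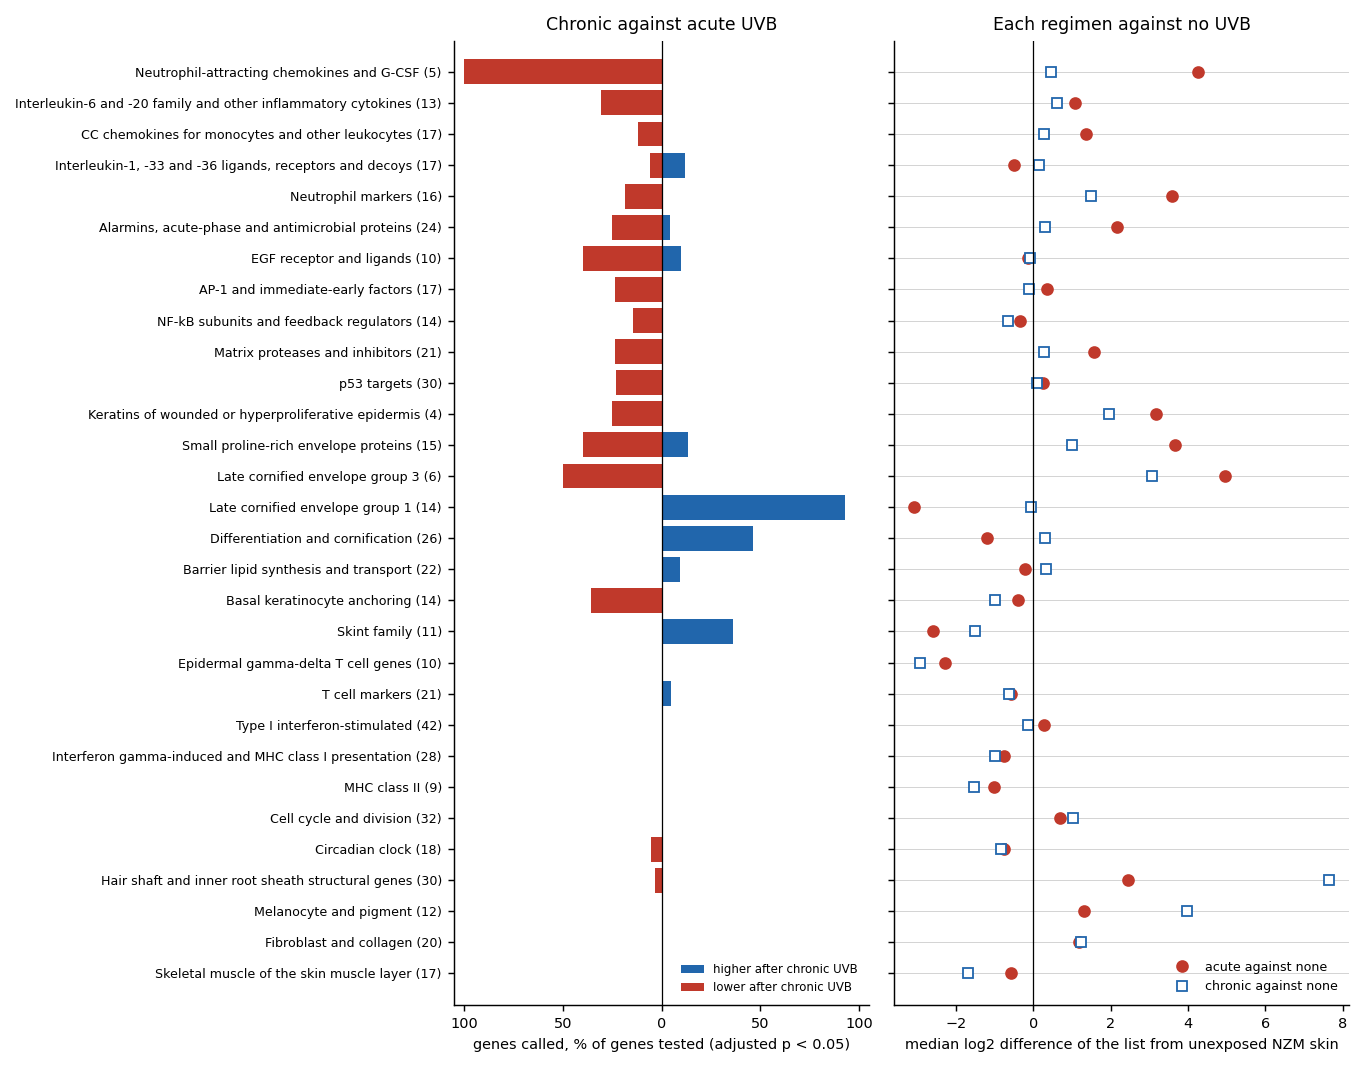
Left: share of the tested genes of each list (number in brackets) that was higher or lower after chronic than after acute UVB in NZM skin at a limma adjusted p below 0.05; right: median log2 difference of each list from unexposed NZM skin after acute (filled) and chronic (open) UVB. The Lce1 median is -3.08 after acute and -0.07 after chronic UVB, and that of the neutrophil chemokines is 4.27 and 0.45; both regimens are set against the same unexposed libraries.

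Few barrier lipid genes and some selection genes of the epidermis were higher. Of 22 barrier lipid genes 2 were higher, where 3.79% of all genes tested were. They were Lipm, an acid lipase of the outermost living layer (1.68 ± 0.27, limma adjusted p = 0.00012), and the sphingomyelinase gene Smpd1. This count was 1 without acute library 1 or chronic library 17, 18 or 54, and 4 without chronic library 55. At 1 gene the lipid list was near the share of all genes. Of 11 Skint genes, which keratinocytes express and some of which select epidermal gamma-delta T cells, 4 were higher: Skint9, Skint10, Skint1 and Skint4. Skint9 was at 95.7 to 648 after acute and 283 to 2622 after chronic UVB, with unexposed skin above most of these at 2156 to 4266 (2.23 ± 0.51, limma adjusted p = 0.0056). None of the 4 Skint calls remained when only the 10 compared libraries were fitted, and 1 Skint gene passed without acute library 1 or 46 or without chronic library 18 or 54, and 2 without acute library 5. The receptor gene of those T cells, Trdc, was low after both regimens, with at most 24.4 after acute and 41.6 after chronic UVB against at least 150 without UVB (log2 difference between the regimens -0.10 ± 0.57).

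The genes with the largest positive differences were not all epidermal structural genes. Akr1d1, a steroid 5-beta-reductase best known from liver (ENSMUSG00000038641.12, chr6:37530173-37568815), had reads in 1 of 5 acute libraries (3.12, library 5) and at most 1.94 in unexposed skin. Its chronic counts were 212, 340, 231, 10.0 and 167. Library 55 was again the low one, yet it was above every acute library (6.56 ± 0.75, limma adjusted p = 2.55e-06). Serpina12, the serpin vaspin, was at 55.5, 277, 172, 97.8 and 240 after acute and at 3141, 5083, 3936, 309 and 1641 after chronic UVB (3.78 ± 0.64, limma adjusted p = 0.000261). Unexposed skin ran from 1521 to 3427, above every acute library and chronic library 55. The same held for Otop3, a proton channel (3.46 ± 0.55). Oas1e (4.32 ± 0.64), of the oligoadenylate synthetase family, was at 0 to 17.3 after acute, 33.9 to 221 after chronic and 29.2 to 207 without UVB, and its close copies make its count uncertain.

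Other genes stood apart in the chronic group instead. Atg9b, an autophagy membrane protein, was at 324, 221, 294, 433 and 356 after acute UVB, 259 to 544 without UVB and 1853, 1938, 1844, 1554 and 1880 after chronic UVB. The chronic libraries were close together and above all others (2.50 ± 0.37, limma adjusted p = 5.07e-05). Slc6a19, a carrier of neutral amino acids, behaved similarly, with 50.1 to 317 after acute, 155 to 329 without and 561 to 815 after chronic UVB (2.39 ± 0.42). Tdh, threonine dehydrogenase, had 488 ± 135 after chronic against 99.2 ± 115 after acute and 35.4 ± 27.6 without UVB, and its call was lost without acute library 46 (limma adjusted p = 0.0550). Serpinb13, a serpin of squamous epithelium, Tmprss7, a membrane serine protease, Pramef12 and Tgm3, an epidermal transglutaminase, had differences of 3.01, 2.96, 2.71 and 2.54. The call for Tgm3 was lost without acute library 1 or 46 (limma adjusted p = 0.0590 and 0.0905) and when only the 10 compared libraries were fitted. The remaining 3 of the 15 higher genes named were gene models named RP23-175B15.1, RP24-157G15.4 and RP24-147H15.5.

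Of the 50 lists, 16 had no called gene. None of 42 type I interferon-stimulated genes passed, with a median of -0.47, nor did any of 28 genes of MHC class I presentation and interferon gamma (median -0.46). Isg15, a ubiquitin-like interferon target, was at 249 to 485 after acute and 56.8 to 413 after chronic UVB (-0.65 ± 0.58), and Ifit1 differed by -0.47 ± 0.61. Without acute library 5, 3 of the 42 and 4 of the 28 passed as lower, and without chronic library 54, 1 of the 42 did. No gene of 9 MHC class II, 19 Langerhans and dendritic cell, 10 gamma-delta T cell, 20 fibroblast and 32 cell cycle genes passed either. The median of the cell cycle list was 0.26, and Mki67, a marker of dividing cells, had 3277 ± 1915 after acute and 4223 ± 1969 after chronic UVB. With the hair shaft score as a covariate 4 cell cycle genes were lower. Among 18 clock genes Bhlhe40 was lower (-0.60 ± 0.17), while Per1 and Dbp, with log2 differences of 0.40 ± 0.27 and 0.06 ± 0.37, did not pass. Single calls elsewhere were Lyve1 (lower) of 17 macrophage markers, Cd5 (higher) of 21 T cell markers and Arg1 (higher) of 16 monocyte markers. At 1 called gene each, these lists and the clock list were near the share of all genes tested (3.79% higher and 3.76% lower). Each of these 4 calls was lost when some single libraries were left out, Arg1 without acute library 1 or 3 or chronic library 17, 18, 54 or 56 (limma adjusted p = 0.0516 to 0.114).

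To ask whether the difference between the regimens was particular to NZM, it was compared with the same difference in WT and iNZM by interaction terms. In WT, 7153 genes passed (37.3%), of which 3762 were higher after chronic UVB (19.6%) and 3391 lower (17.7%). In iNZM 1584 passed (8.26%), of which 731 were higher (3.81%) and 853 lower (4.45%). Of the 726 genes higher in NZM, 632 were also higher in WT (87.1% of the NZM and 16.8% of the WT list) and 369 in iNZM (50.8% and 50.5%). Of the 721 lower genes, 548 were lower in WT (76.0% and 16.2%) and 391 in iNZM (54.2% and 45.8%). The difference itself differed from that in WT for 558 genes (2.91%), being lower in NZM, as a signed log2 difference, for 390 (2.03%) and higher for 168 (0.876%). The 558 became 330 without acute library 3 and 305 without chronic library 56. No WT library had a hair shaft score above 5 (highest 2.67), while acute library 5 and chronic libraries 17, 55 and 56 of NZM did. Hair state and strain are thus partly confounded in this comparison. The count was 3440 with the score as a covariate and 866 without the libraries above 5, and the part of hair growth was not tested further. From iNZM the difference between the regimens differed for 0 genes (0.0%) by limma, edgeR and DESeq2, with 342, 413 and 552 genes at an unadjusted p below 0.05. These counts are below the share of 0.05 that chance alone would give. Of iNZM, acute libraries 6 and 49 and chronic libraries 22, 24 and 25 had a hair shaft score above 5. A count of 0 does not show that NZM and iNZM respond alike.

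Rptn had the most negative interaction with WT among the genes named. Rptn, repetin, a filaggrin-type protein (ENSMUSG00000041984.2, chr3:93393699-93399442), ran from 1242 to 4146 after acute and from 737 to 13485 after chronic UVB in NZM. In WT it ran from 9.35 to 52.0 and from 5359 to 26573. The log2 differences were 1.49 in NZM and 8.53 in WT, and the interaction was -7.04 ± 1.11 (limma adjusted p = 0.000313). It was thus the level after acute UVB at which the strains were farthest apart. Sprr2a3 (interaction -6.97 ± 1.30), Serpinb3a (-6.28 ± 1.25) and Gsdmc (-6.25 ± 1.30) were the other 3 named by the rule in this direction, and all 3 have close copies that can share reads. Serpinb3a had no reads in WT after acute UVB.

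The same sign was found in 11 of the 26 differentiation genes, among them Flg (-3.79 ± 1.05, limma adjusted p = 0.0391), Ivl (-2.71 ± 0.51, limma adjusted p = 0.00261), Casp14 (-2.90 ± 0.64, limma adjusted p = 0.00871) and Tgm3 (-3.77 ± 0.99, limma adjusted p = 0.0274). It was also found in 4 of 14 Lce1 genes, 4 of 5 stefin A genes, 5 of 22 barrier lipid genes and 4 of 13 kallikrein and Spink genes. The same held for 3 of 17 interleukin-1 family genes (Il1f5, Il1f6 and Il1f8). In none of these lists was a gene called with the other sign. Other lists differed. Of 24 alarmin and acute-phase genes 3 had this sign and 1 the other. Of 16 monocyte markers and of 16 NRF2-driven antioxidant genes, 1 each had the other sign and none had this one. Casp14 had 1791 ± 852 after acute and 10772 ± 6829 after chronic UVB in NZM, and 498 ± 141 and 21528 ± 8521 in WT (SD, n = 5 each). NZM was thus higher than WT after acute UVB and lower on average after chronic UVB, with overlap between the strains in the latter. No gene of the neutrophil chemokine list or of the interleukin-6 and interleukin-20 list passed the interaction with WT, with Cxcl1 at -4.97 in NZM, -6.49 in WT and -4.57 in iNZM.

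In the other direction, Rrad, a small GTPase, fell from 854 ± 1019 to 98.6 ± 82.3 in NZM and from 5421 ± 2671 to 47.5 ± 19.8 in WT (interaction 4.14 ± 0.91, limma adjusted p = 0.00854). Its call within NZM was lost without acute library 3 (limma adjusted p = 0.0538), without the hair-rich libraries and when only the 10 compared libraries were fitted. Krt90, a keratin gene, did not differ between the regimens in NZM (-0.16 ± 0.83) and was lower after chronic UVB in WT (-4.64, interaction limma adjusted p = 0.0276). The gene models RP24-291M22.2 and RP24-210L3.2 had interactions of 3.99 and 3.11. Aen, a p53-induced nuclease, was the one p53 target that passed the interaction (0.90 ± 0.23, limma adjusted p = 0.0256), with 1632 and 1065 reads in NZM and 2904 and 1020 in WT after acute and chronic UVB.

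**Figure D4:**
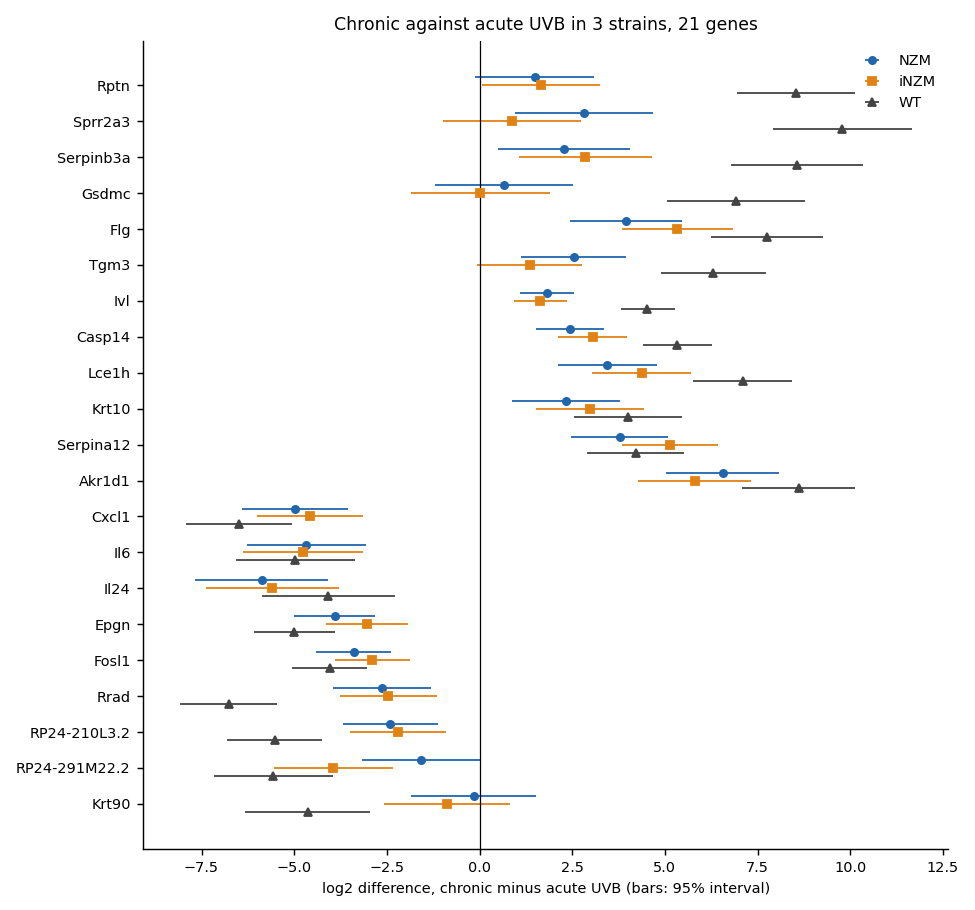
Log2 difference between chronic and acute UVB with its 95% interval in NZM (circles), iNZM (squares) and WT (triangles) for 21 genes. WT lies farther from 0 than NZM for Rptn, Sprr2a3, Serpinb3a, Gsdmc, Flg and Rrad, where the interaction passed; for Cxcl1, Il6, Il24, Epgn and Fosl1 it did not pass.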

How the data were processed

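Poly-A RNA of back skin was sequenced in 43 libraries, and the authors deposited 1 table of normalised signal: gene counts divided by a size factor per library. Per the submitters' processing notes, STAR, HTSeq, DESeq2 and build mm10 were used. Versions, annotation, filters and the strand setting are not given in the sources used here. Without strand information, overlapping and antisense genes cannot be told apart. Dividing each column by its smallest step recovered whole reads for 100.0% of values (tolerance 0.01), with size factors of 0.6735 to 1.7503 and 18.49 to 37.76 M reads per library. Counting error was therefore small for all but low genes.

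The value plus a pseudocount of 1 was put on the log2 scale, which understates the change of low genes, and fitted with limma 3.58.1 (trend, R 4.3.3). The fit used 9 group means over all 43 libraries, and Benjamini-Hochberg adjustment ran over the 19170 genes. Errors after ± are standard errors of log2 differences unless given as SD. Interaction terms compared strains. Groups came from the sample labels. No replicate pair agreed within sampling noise (smallest chi-square per gene 17.0). Alternatives were count tests of the recovered reads (edgeR 4.0.16, DESeq2 1.42.0), other pseudocounts, filters, scalings, covariates and weights, and leaving out libraries. The fit was tested on simulated counts with the same spread set for all genes and groups. That simulation had no hair-rich libraries, so it does not cover the spread between the libraries of these data. The exclusion of libraries with a hair shaft score above 5 was chosen after seeing the data.

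The comparison, the 50 gene lists (832 genes, 808 tested) and the named genes were chosen with earlier results of these data known. Named genes were up to 15 in each direction ranked by log2 difference, among genes that passed limma's test, did not overlap and averaged 100 or more in whichever regimen was higher, leaving out predicted models and receptor segments. To these were added up to 4 genes of each list by adjusted p, up to 4 per direction for each interaction, and a fixed set of skin and immune genes. Other genes named in the text were chosen after their values were seen. 1 gene is not reported by name here. Positions are from GENCODE on GRCm38 and promoter windows from RefSeq on GRCm38.p6. Python 3.11.15, pandas 2.3.3, scipy 1.17.1 and matplotlib 3.10.9 were used.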

Additional observations from a re-analysis of the deposited data

Results flagged for a closer look

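In 132 groups of values, 9 had 1 library far from the others. The rule marks about 1 in 20 groups of independent, normally spread values, which these groups need not be. It always marks a group in which 1 library has reads and the others have none. This was so for Akr1d1 in the acute and RP24-210L3.2 in the chronic libraries. Chronic library 55, which is rich in hair shaft transcripts, was the distant one in 5 of the 9 groups. It was low for Akr1d1 (10.0 against 167 to 340), Atg9b (1554 against 1844 to 1938) and Rptn (737 against 6016 to 13485). It was high for Sh2d5 (93.3 against 17.8 to 21.8) and RP24-210L3.2 (4.63 against 0). In acute libraries Akr1d1 was high in library 5 (3.12 against 0) and Tmprss7 in library 3 (24.4 against at most 14.1). Ccl2 was high in chronic library 54 (291 against 43.0 to 69.1). The depth of chronic library 56 was 37.76 M reads against 23.43 to 27.03 M in the other 4.

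The difference between chronic and acute UVB differed between NZM and WT, by limma's interaction term, in 13 of 65 named genes, and in 2.91% of all genes tested. Rptn, Sprr2a3, Serpinb3a, Gsdmc, Krt90, Rrad, RP24-291M22.2 and RP24-210L3.2 were named because they passed this term. Their passing was thus fixed in advance, and the count is not a result about the named genes. The difference was lower in NZM for Rptn (interaction -7.04), Sprr2a3 (-6.97), Serpinb3a (-6.28), Gsdmc (-6.25) and Flg (-3.79). The same direction held for Tdh (-3.99, with 3.08 in NZM and 7.07 in WT), Tgm3 (-3.77, with 2.54 and 6.30), Tmprss7 (-2.92, with 2.96 and 5.88) and RP24-157G15.4 (-2.90, with 2.44 and 5.35). It was higher in NZM for Krt90 (4.49), Rrad (4.14), RP24-291M22.2 (3.99, with -1.57 in NZM and -5.56 in WT) and RP24-210L3.2 (3.11, with -2.41 and -5.52). The limma adjusted p ran from 0.000313 for Rptn to 0.048 for RP24-210L3.2.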

How the results depend on the processing

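No paired analysis was possible because the groups compared share no sample numbers. The 1447 genes called between the regimens became 2319 with the hair shaft score as a covariate, 882 with only the compared groups, 5110 with sample quality weights, 86 within sample numbers of 46 or above, 874 within numbers under 46 and 536 at a threshold of 0.01. Leaving out 1 library gave 836 to 2031. The 558 genes of the interaction with WT became 1035 with DESeq2, 3440 with the hair shaft covariate, 2647 with quality weights, 866 without the hair-rich libraries and 156 at 0.01, and 305 to 591 with 1 library left out. The interaction with iNZM gave 0 genes in each alternative run. Against unexposed skin, acute UVB had 4097 genes, 7784 with quality weights, 2343 at 0.01 and 3118 to 4057 with 1 library left out. Chronic UVB had 3638, 6347 with quality weights, 1006 without the hair-rich libraries, 1278 at 0.01 and 1890 to 4307 with 1 library left out. The cause of these shifts was not tested, except that a stricter threshold gives fewer calls by construction. Of 41 named genes called between the regimens, all 41 kept their direction in each alternative. Many of them were named because they passed the test without overlap, which leaves little room for a change of sign. None of the 1447 called genes had the opposite sign in any alternative, so a kept direction does not set the named genes apart. Of the 41 named genes, 39 were called by edgeR (not Tgm3 and RP24-210L3.2), 41 by DESeq2, 33 with only the compared groups, 14 within numbers of 46 or above and 27 within numbers under 46. Low genes such as Saa2, Csf3 and Krtap13 rest on few reads.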
